A study of Mus musculus with 10 samples.

Results

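Accessibility of the clustered protocadherin genes was described from every peak of the deposited count table that lay wholly inside chr18:36900000-38000000 of the mouse genome build mm10, a window that holds the alpha (Pcdha), beta (Pcdhb) and gamma (Pcdhg) clusters and the sequence beside them. The rule used position alone and found 29 of the 37513 peaks. The libraries are ATAC-seq, in which a transposase places adapters where DNA is accessible, made from nuclei cut with a laser out of frozen lung and brain sections of C57BL/6J wild-type mice. A library of the smaller size pooled 50 nuclei captured one by one, and a library of the larger size pooled 10 captured areas of about 20 nuclei, near 200 nuclei in all. Lung was sampled by 3 libraries of each size and brain by 2 of each, which makes 4 groups and 10 libraries. No treatment or deletion was applied in any group. The labels speak of technical duplicates and do not give the number of mice, so p-values measure only the spread between these libraries, which may be technical. The whole tissue section was sampled at random, so fewer cells of a type and less accessibility per cell cannot be told apart.

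Clustered protocadherins are cell-surface adhesion proteins of the cadherin family that serve neurons in telling their own branches from those of other cells. Each alpha and gamma gene has a variable exon with a promoter of its own, which is spliced to constant exons shared by its cluster, whereas each beta gene stands alone. A neuron is known to use a few of the alternate genes, chosen largely at random, while the C-type genes at the end of the alpha and gamma clusters (Pcdhac1, Pcdhac2, Pcdhgc3, Pcdhgc4 and Pcdhgc5) are used more evenly. Promoter choice involves the insulator protein CTCF, the cohesin ring and enhancers outside the variable exons, among them an element known as HS5-1 downstream of the alpha cluster. The files name no regulatory elements, and the identity of the peaks as such elements was not tested.

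Levels are reads per 1000000 reads in nuclear peaks (RPM), which leaves mitochondrial reads out of the scale. Nuclear reads numbered 340697 to 3075377 in the lung libraries and 319307 to 465489 in the brain libraries, where 93.4% to 95.8% of reads in peaks were mitochondrial. A single read was therefore worth 2.15 to 3.13 RPM in brain and 0.325 to 2.94 RPM in lung, and the 3 reads that a count of 0 allows corresponded to 6.44 to 9.40 RPM in brain and 0.975 to 8.81 RPM in lung (counting error only). The 29 peaks together received 192 to 1798 reads a library. Between 25 and 29 of them held a read in 8 libraries, against 18 and 14 in lung 50-nuclei replicates 2 and 3. These 2 libraries also reached the fewest peaks of the whole table. Neuron marker genes (16 peaks of 10 genes) summed to 343.7 to 458.9 RPM in the brain libraries and 21.9 to 167.3 RPM in lung, and endothelial marker genes (43 peaks of 9 genes) to 378.1 to 591.1 RPM in brain and 1238 to 1824 RPM in lung. Of the neuron peaks, 10 of 16 were higher in brain (5.76% of all tested peaks) and 0 in lung (4.39% of all). The default filter of edgeR kept 8 of these 16 and called 2 in brain. Of the endothelial peaks, 17 of 43 were higher in lung and 0 in brain. The count in lung fell to 10 without brain 50-nuclei replicate 2 or brain 200-nuclei replicate 1 and to 11 without lung 200-nuclei replicate 3. Over all tested peaks, those higher in lung fell from 1645 to 665, 708 and 892 in these fits. Scaled by library totals with mitochondrial reads, 4 neuron peaks were higher in brain and 6 in lung, and 39 endothelial peaks were higher in lung. On that scale 252 of all 37466 tested peaks were higher in brain and 30079 in lung. No gene of the neuron list was at 0 in all lung libraries, and no gene of the endothelial list was at 0 in all brain libraries.

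The peaks sat at a small part of the protocadherin genes. Of the 58 genes, 4 had a peak centred within 1000 bp of their start, namely Pcdhac1, Pcdhgb6, Pcdhgc3 and Pcdhgc5. The other 54, made up of 13 alpha, 22 beta and 19 gamma genes, had none, and the same 4 genes were found within 500 bp and within 2000 bp. The alpha cluster (14 genes, chr18:36930285-37188897) held 1 peak and the beta cluster (22 genes, chr18:37264998-37521419) held 0. The gamma cluster (22 genes counting the pseudogene Pcdhgb8, chr18:37661775-37841873) held 8. A further 2 peaks lay between alpha and beta, 2 between beta and gamma, and 16 beyond gamma. Of the C-type genes, Pcdhac2 and Pcdhgc4 had no start peak. Among the variable genes other than the C-type, 1 start was covered, that of Pcdhgb6.

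The distribution was uneven along the window. From the start of the gamma cluster onward there were 24 peaks, and 5 lay before it. The widest stretch without a peak measured 437.4 kb and held the whole beta cluster, and the first 189.9 kb of the window, most of it alpha cluster, held none either. The window had 26.4 peaks per Mb against 13.6 per Mb over the stretch of chromosome 18 that holds peaks. Its figure counts the 16 peaks beyond gamma, so it is not the density of the protocadherin clusters. Peak width had a median of 170 bp (91 to 489 bp), against 164 bp over all peaks. The 16 peaks beyond gamma fell on other genes: 9 on Diaph1, an actin-nucleating formin, 2 at the abutting ends of Hdac3, a histone deacetylase, and Rell2, 1 at the end of Fchsd1, and 4 on Arap3, a GTPase-activating protein known from blood-vessel growth. By position, the label of the window thus covers 13 peaks in or between the protocadherin clusters and 16 at their neighbours. Whether any of the 16 act on protocadherin genes was not tested. Variable exons of a cluster resemble each other in sequence, and how reads that match several of them were handled is not given in the sources used here. Its part in the missing start peaks was not tested.

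**Figure D1:**
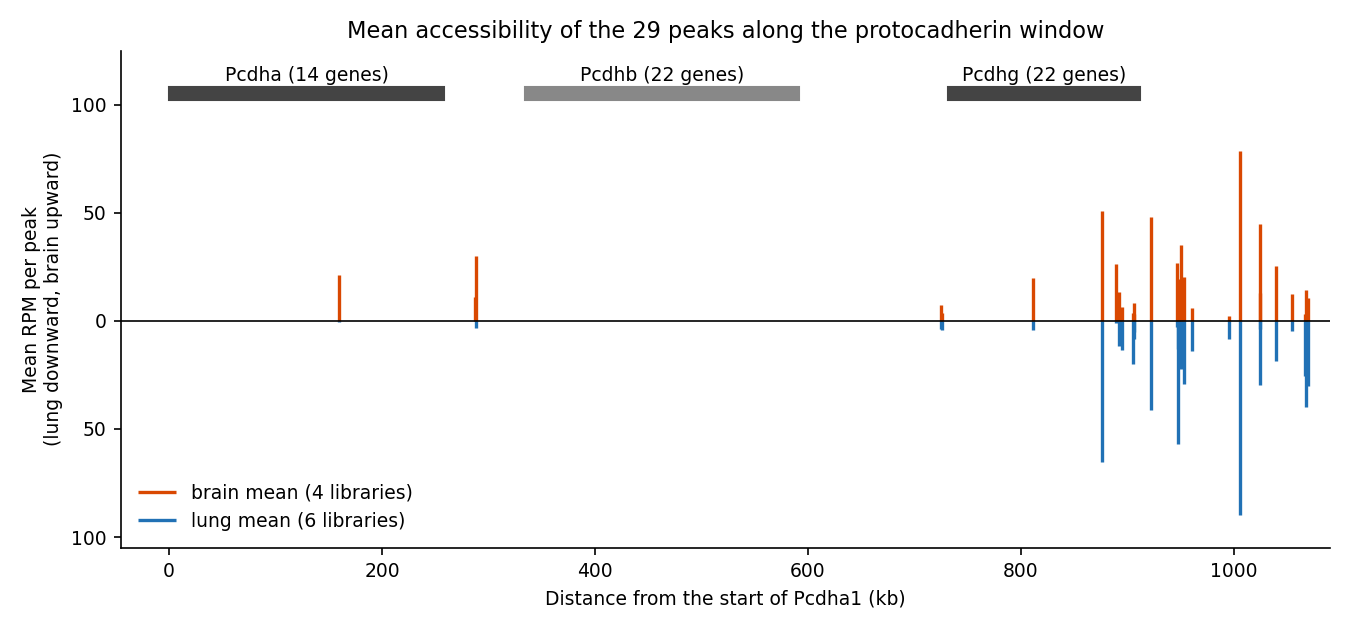
Mean accessibility of each of the 29 peaks in RPM (brain drawn upward, lung downward) against distance from the start of Pcdha1 in kb, with bars above for the extent of the 3 clusters. The peaks crowd into the gamma cluster and the sequence beyond it, the beta cluster holds 0, and at the peaks within and just after the alpha cluster the brain bars stand with almost no lung bar below them.

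Brain and lung were compared at each peak over both sizes with edgeR's quasi-likelihood test and Benjamini-Hochberg adjustment over all 37466 tested peaks. All 29 peaks of the window passed the filter of 10 reads summed over libraries. Of those called below, the Pcdhac1 start (35 brain, 3 lung reads) and narrower alpha-beta peak (17, 1) passed through brain alone, and the Arap3 peak (5, 164) through lung alone. The default filter of edgeR removed 4 of the 7 called peaks, all higher in brain. A peak was called at an adjusted p under 0.05. In brain, 5 of 29 peaks (17.2%) were higher, against 5.76% of all tested peaks, and in lung 2 of 29 (6.90%) were higher, against 4.39% of all. In either direction 7 of 29 were called, against 10.2% of all, and 22 did not pass. The peaks higher in brain were the Pcdhac1 start, both peaks between alpha and beta, the Pcdhgc5 start and a peak inside Diaph1, while those higher in lung were another peak inside Diaph1 and a peak inside Arap3. The median log2 fold, brain over lung, was 0.17 over the 29 peaks and 0.07 over all tested peaks. The 4 brain libraries all exceeded the 6 lung libraries at 3 of the 29 peaks (8.40% of all peaks), the reverse held at 3 (4.94% of all peaks), and the other 23 overlapped.

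These counts moved with single libraries. Leaving out lung 200-nuclei replicate 1 or 2, or brain 50-nuclei replicate 1 or 2, reduced the peaks higher in brain to 3. Over all tested peaks, those higher in brain also fell in these fits, from 2158 to 1435, 1296, 981 and 951 in turn. The peaks higher in lung numbered 1 without any one of the 3 lung libraries of 200 nuclei or any one of the 4 brain libraries. Over all tested peaks the count in lung was 665 to 1162 in those fits, against 1645 with all libraries. In the window 3 were higher in lung without lung 50-nuclei replicate 2 (2367 over all tested peaks). There were 4 without lung 50-nuclei replicate 1 (1783 over all) or 3 (3240 over all). Calls at the Pcdhac1 start, the narrower peak between alpha and beta, the Pcdhgc5 start and the fourth peak inside Diaph1 held in each of the 10 fits that left out a library. Those fits kept the filter on summed reads. Scaling by library totals with mitochondrial reads included moved the median of all tested peaks to a log2 fold of −3.34. On that scale the wider alpha-beta peak and the second Diaph1 peak turned to −0.32 and −0.16. The calls at the narrower alpha-beta peak (edgeR adjusted p = 0.0588) and the Pcdhgc5 start (0.100) were lost, and that at the Pcdhac1 start held (0.0382). In the window 21 of 29 peaks were higher in lung and 1 in brain, against 30079 and 252 of all 37466 tested peaks.

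**Figure D2:**
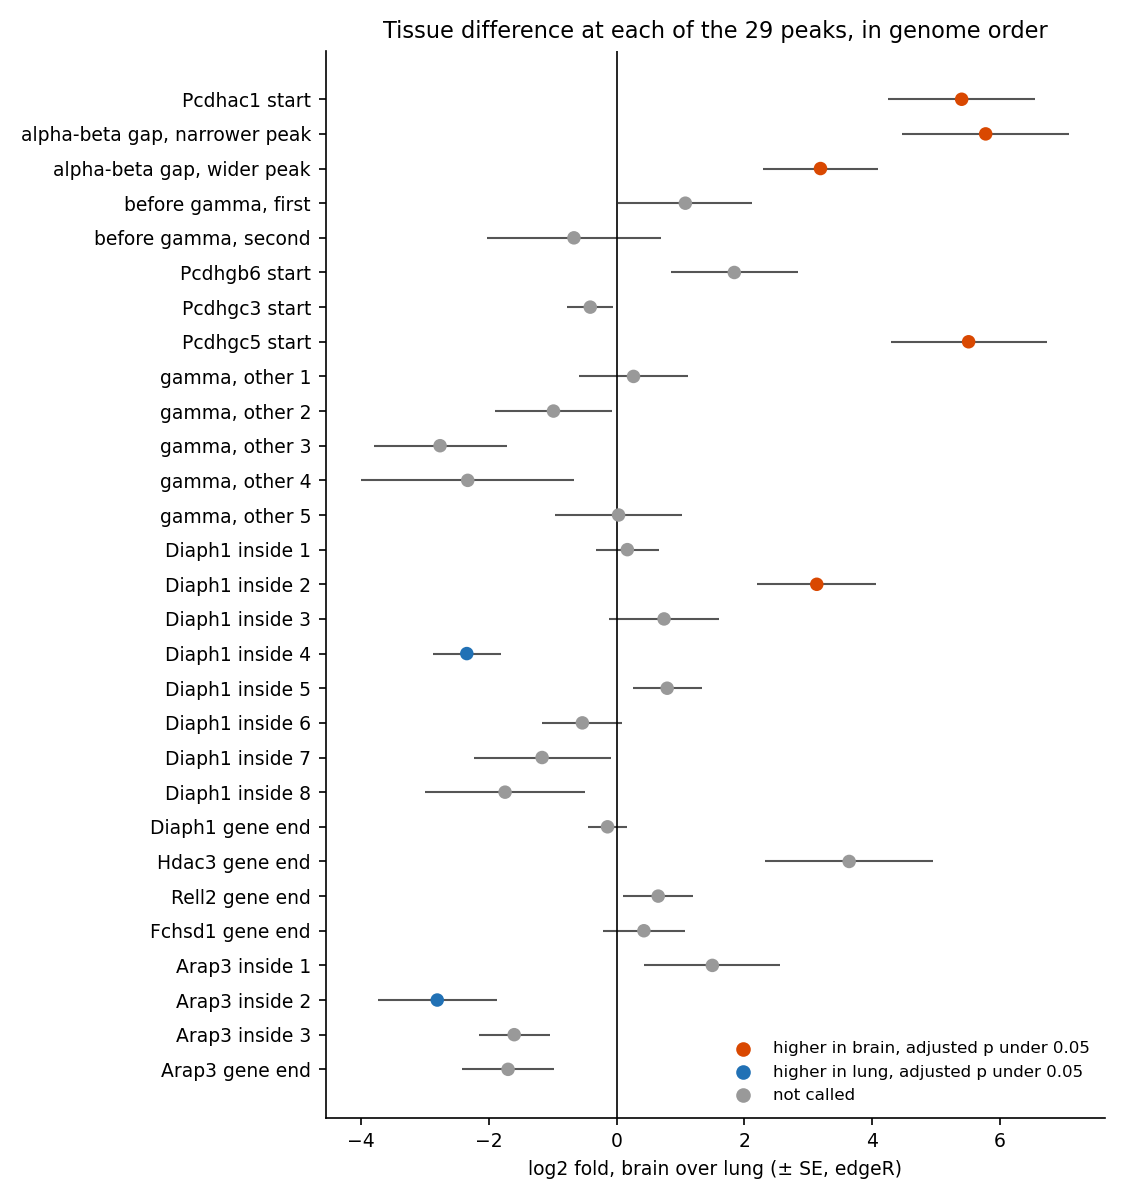
Log2 fold, brain over lung, with its SE from edgeR for each of the 29 peaks in genome order; orange marks an adjusted p under 0.05 with brain higher, blue the same with lung higher, and grey peaks that were not called. The first 3 peaks are orange, and from the gamma cluster onward folds of both signs alternate.

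The single peak of the alpha cluster lay at Pcdhac1, the first C-type gene, with its centre 214 bp before the annotated start (chr18:37089860-37089983). It measured 4.27, 0 and 0 RPM in the 3 lung libraries of 50 nuclei and 0 RPM in each of the 3 lung libraries of 200 nuclei. The brain libraries gave 16.4 and 15.7 RPM at 50 nuclei and 15.04 and 38.7 RPM at 200 nuclei. Every brain library lay above every lung library, and 5 of 6 lung libraries had no read. Lung held 3 reads in all and brain 35, a ratio of 59.0 per nuclear read (95% exact interval 18.6 to 300.0, counting error only). The fitted log2 fold was 5.41 ± 1.15 (SE; edgeR adjusted p = 0.00167), and 7.38 without lung 50-nuclei replicate 1, the library that held all 3 lung reads. With lung at 200 nuclei at 0 reads, these sizes vary with the prior count that edgeR adds and are no bounds.

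Both peaks between the alpha and beta clusters were also higher in brain. They lay 142 bp apart, their centres 29.1 and 29.4 kb beyond the end of the alpha genes and 47.0 and 46.7 kb before Pcdhb1. At the narrower peak (chr18:37217914-37218010) the lung libraries held 0 RPM except for 0.325 RPM in 200-nuclei replicate 3, and the brain libraries gave 13.7 and 9.40 RPM at 50 nuclei and 7.52 and 12.9 RPM at 200 nuclei. The tissues did not overlap. This peak rested on 17 brain reads and 1 lung read, a ratio of 86.0 whose 95% exact interval ran from 13.5 to 3594.9. The fitted log2 fold was 5.78 ± 1.31 (SE; edgeR adjusted p = 0.00310), a size that likewise varies with the prior count, since lung at 50 nuclei was at 0 reads.

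The wider peak of the pair (chr18:37218152-37218404) measured 0, 0 and 12.8 RPM in lung at 50 nuclei, 1.11, 1.46 and 4.23 RPM in lung at 200 nuclei, 38.3 and 28.2 RPM in brain at 50 nuclei, and 12.5 and 40.8 RPM in brain at 200 nuclei. The highest lung library, 50-nuclei replicate 3, reached just above the lowest brain library, 200-nuclei replicate 1, and the other libraries were apart. The fitted log2 fold was 3.19 ± 0.90 (SE; edgeR adjusted p = 0.0180), 5.64 without lung 50-nuclei replicate 3 and 4.88 with the replicate block. The call was lost without lung 200-nuclei replicate 1 (adjusted p = 0.0570) or replicate 2 (0.0582), without brain 50-nuclei replicate 1 (0.107) or replicate 2 (0.0715), and without brain 200-nuclei replicate 2 (0.190). Summed over the pair and Pcdhac1, the level was 62.3 ± 24.2 RPM in brain (SD, n = 4) and 4.03 ± 4.65 RPM in lung (SD, n = 6), with no overlap between tissues. This sum holds only peaks called higher in brain, so its lack of overlap adds no support to the calls. The neuron marker peaks rose with these peaks, and their part in the result was not tested.

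Of the 3 start peaks of the gamma cluster, 1 was called. Pcdhgc5, the last C-type gene, had a peak centred 205 bp before its start (chr18:37819289-37819393). Lung gave 0 RPM in each library of 50 nuclei and 4.43, 1.46 and 0.650 RPM at 200 nuclei. Brain gave 21.9 and 28.2 RPM at 50 nuclei and 45.1 and 10.7 RPM at 200 nuclei. The tissues again did not overlap, with 40 reads in brain and 12 in lung (ratio 16.9 per nuclear read, 95% exact interval 8.67 to 35.3). Its fitted log2 fold was 5.51 ± 1.22 (SE; edgeR adjusted p = 0.00251), and 4.90 without brain 200-nuclei replicate 1. With lung at 50 nuclei at 0 reads, its size rests in part on edgeR's prior count.

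Pcdhgc3, a C-type gene of the same cluster, had the highest mean level over the 10 libraries of the 4 clustered start peaks (chr18:37806146-37806525, centre 74 bp before the start). It measured 68.2, 44.0 and 58.4 RPM in lung at 50 nuclei, 67.6, 73.9 and 80.3 RPM in lung at 200 nuclei, 43.8 and 87.7 RPM in brain at 50 nuclei, and 22.6 and 49.4 RPM in brain at 200 nuclei. The highest and the lowest library were both from brain. The mean was 65.4 ± 12.8 RPM in lung (SD, n = 6) and 50.9 ± 27.1 RPM in brain (SD, n = 4). A tissue difference did not pass (log2 fold −0.41 ± 0.36, SE; edgeR adjusted p = 0.501). This was the single protocadherin start with a read in every library.

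Pcdhgb6, a B-type variable gene, had a peak centred 56 bp before its start (chr18:37741953-37742123); it falls outside the naming rule and was picked after its values were seen, as the remaining start peak. Lung gave 15.6, 0 and 0 RPM at 50 nuclei and 0.554, 2.93 and 7.15 RPM at 200 nuclei, and brain gave 16.4 and 40.7 RPM at 50 nuclei and 17.6 and 4.30 RPM at 200 nuclei. The tissues overlapped, since lung 50-nuclei replicate 1 and lung 200-nuclei replicate 3 both lay above brain 200-nuclei replicate 2. The log2 fold of 1.84 ± 1.00 (SE) did not pass (edgeR adjusted p = 0.245), and without lung 50-nuclei replicate 1 it was 4.67 and passed (adjusted p = 0.0223). Neither Pcdhgb6 nor Pcdhgc3 therefore passed with all libraries, and differences between the folds of separate genes were not tested.

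**Figure D3:**
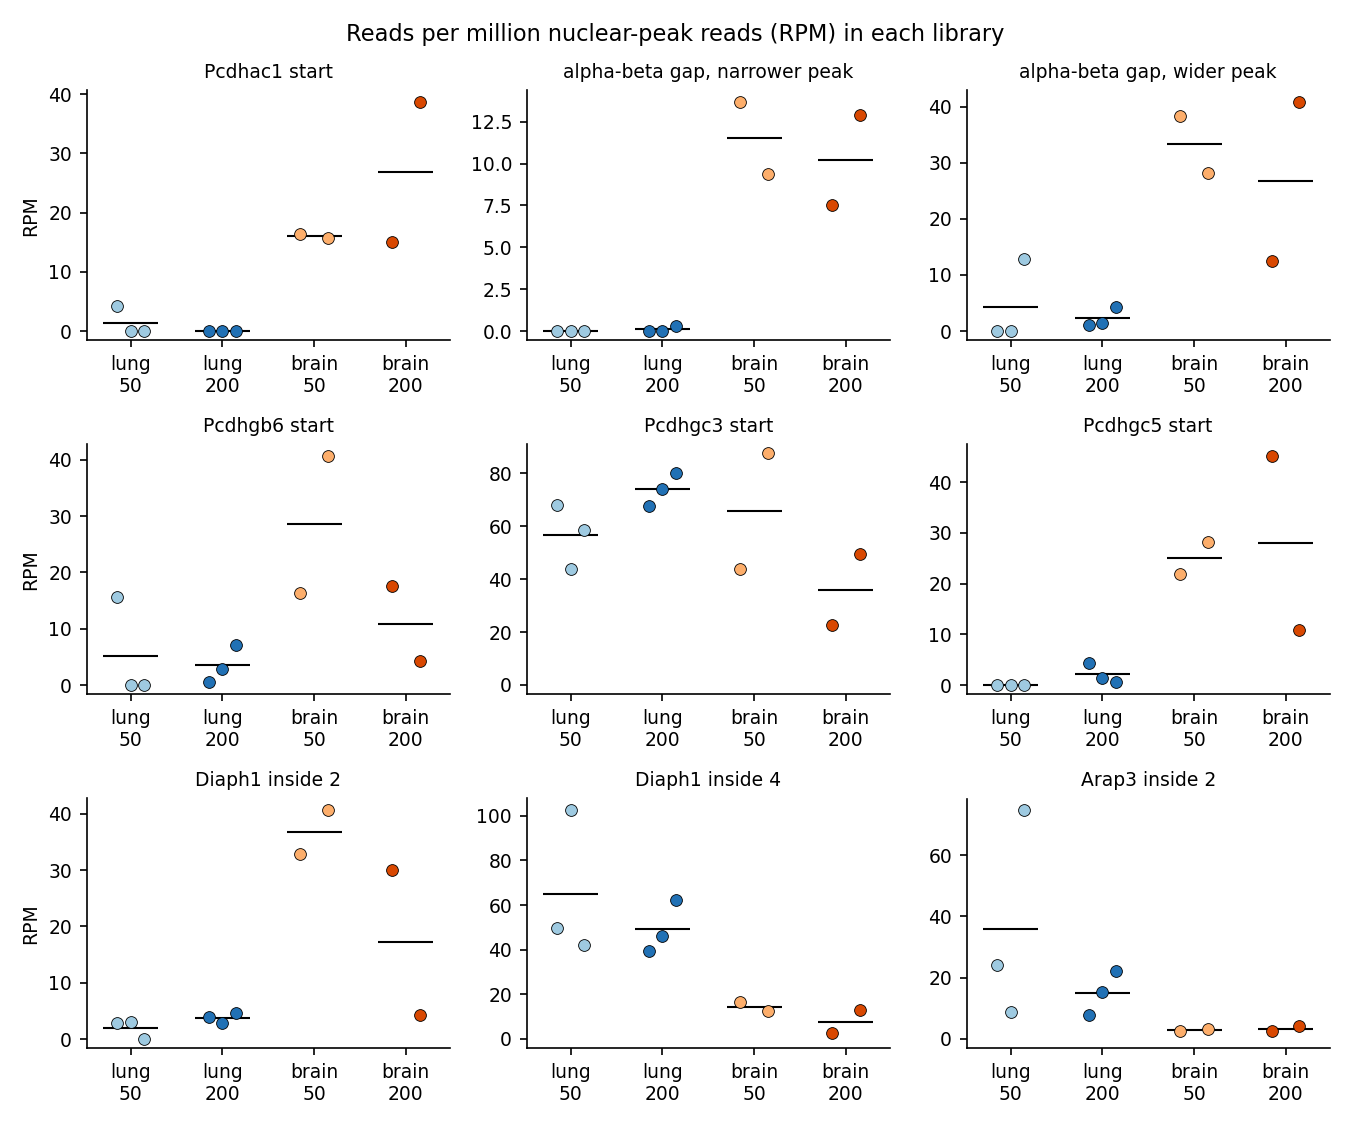
RPM in every library (points) and group mean (lines) for the 4 protocadherin start peaks, the peaks between alpha and beta, and 3 called peaks beyond gamma. Brain points lie above all lung points at the Pcdhac1 start, the narrower alpha-beta peak and the Pcdhgc5 start, the tissues mix at the Pcdhgc3 start, and the lung points are all higher at Diaph1 inside 4 and Arap3 inside 2.

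The other 5 gamma peaks lay 3114 to 17270 bp past the start of Pcdhgc5, between it and the shared end of the gamma genes, and none was called. Their mean levels over the 10 libraries ran from 4.33 to 13.4 RPM. Log2 folds were 0.27, −0.99, −2.76, −2.33 and 0.03 in genome order. The third of them, with 163 lung reads and 5 brain reads, came nearest to passing (edgeR adjusted p = 0.0834) and passed without lung 50-nuclei replicate 1 (0.0349) or replicate 3 (0.0238). Summed over its 8 peaks, the gamma cluster measured 129.6 ± 28.5 RPM in lung (SD, n = 6) and 132.3 ± 60.9 RPM in brain (SD, n = 4). The widest spread was in brain at 50 nuclei, where replicate 2 was high and replicate 1 was among the low libraries.

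Of the 2 peaks between beta and gamma, 6.13 and 5.91 kb before the first gamma gene, neither was called. The stronger (chr18:37655550-37655742) measured 5.69, 5.87 and 0 RPM in lung at 50 nuclei, 6.10, 2.93 and 0.976 RPM in lung at 200 nuclei, 8.21 and 6.26 RPM in brain at 50 nuclei, and 5.02 and 10.7 RPM in brain at 200 nuclei. Brain and lung overlapped at these levels, which came to 2 to 5 reads in each brain library. Its log2 fold was 1.08 ± 1.05 (SE; edgeR adjusted p = 0.550). The other held reads in 3 of 6 lung and 2 of 4 brain libraries and had a log2 fold of −0.67 (adjusted p = 0.798).

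Beyond the gamma cluster, neighbouring peaks inside Diaph1 went opposite ways. The second peak abuts on the third and the fourth follows 83 bp later, so the 3 form a block of accessible sequence. Their centres lay 35.4 to 36.0 kb past the gamma genes. The second (chr18:37877229-37877372) measured 2.84, 2.94 and 0 RPM in lung at 50 nuclei, 3.88, 2.93 and 4.55 RPM in lung at 200 nuclei, 32.8 and 40.7 RPM in brain at 50 nuclei, and 30.1 and 4.30 RPM in brain at 200 nuclei. Brain 200-nuclei replicate 2 fell within the lung range, and the other 3 brain libraries stood well above it. The log2 fold was 3.14 ± 0.93 (SE; edgeR adjusted p = 0.0244). The call was lost without any one of the 3 lung libraries of 200 nuclei (0.0636 to 0.0764), without brain 50-nuclei replicate 1 (0.0914) or replicate 2 (0.124), without brain 200-nuclei replicate 1 (0.345), and with the replicate block (0.150).

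The fourth peak inside Diaph1 (chr18:37877663-37878152), the widest of the window, was higher in lung. It measured 49.8, 102.7 and 42.0 RPM in lung at 50 nuclei, 39.3, 46.1 and 62.1 RPM in lung at 200 nuclei, 16.4 and 12.5 RPM in brain at 50 nuclei, and 2.51 and 12.9 RPM in brain at 200 nuclei. No brain library reached the lowest lung library. The log2 fold was −2.35 ± 0.53 (SE; edgeR adjusted p = 0.00299), a 5.08-fold higher level in lung, and −3.17 without brain 200-nuclei replicate 2. The third peak, between the pair, had a log2 fold of 0.74 ± 0.86 (adjusted p = 0.624).

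The highest of the 29 peaks lay at the higher-coordinate end of Diaph1 (chr18:37935373-37935734), which may be its start or its end, since strand was not listed. Its values were 72.5, 96.9 and 45.6 RPM in lung at 50 nuclei, 120.2, 95.2 and 107.3 RPM in lung at 200 nuclei, 65.7 and 87.7 RPM in brain at 50 nuclei, and 75.2 and 85.9 RPM in brain at 200 nuclei. The brain range lay inside the lung range. The log2 fold of −0.14 ± 0.30 (SE; edgeR adjusted p = 0.807) did not pass. Together the 9 Diaph1 peaks summed to 276.9 ± 37.2 RPM in lung (SD, n = 6) and 248.0 ± 19.1 RPM in brain (SD, n = 4).

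At Hdac3, Rell2 and Fchsd1 no peak was called. The Hdac3 and Rell2 peaks abut, and their log2 folds were 3.64 ± 1.31 (SE; edgeR adjusted p = 0.0700) and 0.65 (adjusted p = 0.479). The Hdac3 peak passed without lung 50-nuclei replicate 3 (0.0494), and with DESeq2 (0.0347). Its lung reads were at 0 in each library of 50 nuclei. The Fchsd1 peak had a log2 fold of 0.43.

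Of the 4 Arap3 peaks, 1 was higher in lung and 3 did not pass. The called peak (chr18:37996693-37996874) measured 24.2, 8.81 and 74.8 RPM in lung at 50 nuclei, 7.76, 15.4 and 22.1 RPM in lung at 200 nuclei, 2.74 and 3.13 RPM in brain at 50 nuclei, and 2.51 and 4.30 RPM in brain at 200 nuclei. The lowest lung library exceeded the highest brain library, and each brain value stood for 1 or 2 reads. The log2 fold was −2.81 ± 0.93 (SE; edgeR adjusted p = 0.0461). This call was lost in the fits without lung 50-nuclei replicate 3 (0.0567), without any one of the lung libraries of 200 nuclei (0.0620 to 0.149) and without any one of the brain libraries (0.131 to 0.184), with the replicate block (0.271), with thinned reads (0.0911) and with the default filter of edgeR (0.0738). The next peak, with log2 fold −1.60 ± 0.56 (SE), missed the threshold (adjusted p = 0.0578) though its tissues did not overlap, and it passed without any one of the 3 lung libraries of 50 nuclei (0.0107 to 0.0477). The peak at the gene's higher-coordinate end had a log2 fold of −1.70 (adjusted p = 0.126) and passed without lung 50-nuclei replicate 3 (0.0221). The remaining peak had one of 1.501 (adjusted p = 0.392).

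Summed over its 4 peaks, Arap3 measured 99.6 ± 17.8 RPM in lung (SD, n = 6) and 40.4 ± 18.5 RPM in brain (SD, n = 4), without overlap. The endothelial marker peaks were higher in lung as well, and their part in the Arap3 values was not tested. Over all 29 peaks the sum came to 569.8 ± 66.1 RPM in lung and 578.0 ± 108.4 RPM in brain, a difference smaller than the spread between libraries.

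**Figure D4:**
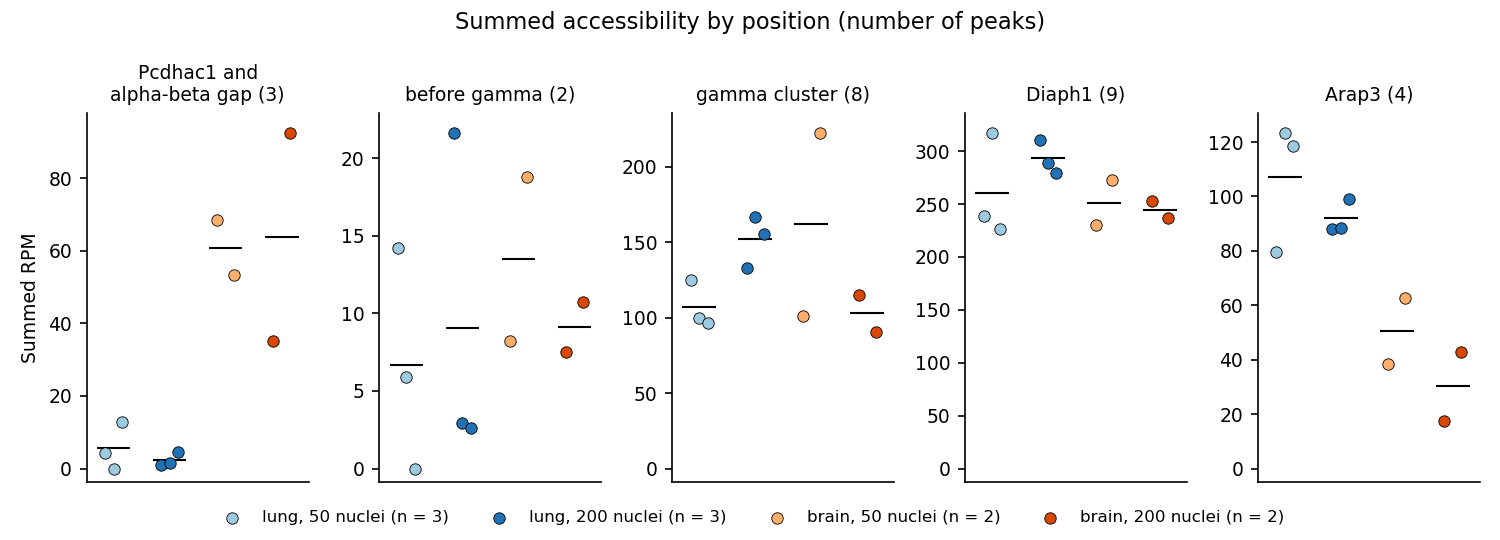
RPM summed over the peaks of a position class in every library (points) with group means (lines); the number of peaks is in brackets and each panel has its own axis, which includes 0. Brain libraries lie above all lung libraries for Pcdhac1 with the alpha-beta gap, a panel that sums only peaks called higher in brain. They lie below all lung libraries for Arap3, and the tissues overlap for the peaks before gamma, the gamma cluster and Diaph1.

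The tissue comparison was also made at each size. At 50 nuclei 0 of 29 peaks were called by edgeR (1.41% of all tested peaks, 0.918% with brain and 0.488% with lung higher), 9 had an unadjusted p under 0.05 (17.1% of all) and DESeq2 called 3. The Pcdhgc5 start came nearest (edgeR adjusted p = 0.0551), with reads in both brain libraries and in none of the 3 lung libraries. Set against a floor of 3 reads over the lung group, its brain level was 13.2-fold higher. The fold was 7.35 without lung 50-nuclei replicate 1 and 8.64 without replicate 3. Against the same floor the narrower alpha-beta peak was 6.20-fold higher in brain, or 3.46-fold and 4.07-fold without these 2 libraries in turn. Brain reads were taken as counted, without their own counting error, so these folds are no lower bounds. The count rose to 4 without lung 50-nuclei replicate 1 and to 3 without replicate 3.

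At 200 nuclei 2 of 29 peaks were called (2.24% of all tested peaks, 1.00% with brain and 1.24% with lung higher): the Pcdhac1 start (log2 fold 7.64 ± 1.72, SE; edgeR adjusted p = 0.0115) and the fourth Diaph1 peak (−2.70 ± 0.77, SE; adjusted p = 0.04997, just under the threshold). Lung at 200 nuclei held 0 Pcdhac1 reads among 6246149 nuclear reads. Against the floor of 3 reads over the group, brain as counted was 57.8-fold higher. The fold was 29.3 without lung 200-nuclei replicate 3 and 31.3 without brain 200-nuclei replicate 2. These folds too leave out the counting error of the brain reads and are no lower bounds. The count was 0 without any one of the lung libraries of 200 nuclei or of the brain libraries of 200 nuclei. It was 1 without either brain library of 50 nuclei, 4 without lung 50-nuclei replicate 2 and 8 without replicate 3. For such fits at 50 or at 200 nuclei, counts over all tested peaks are not given here. At the fourth Diaph1 peak the log2 fold was −1.99 ± 0.74 (SE) at 50 nuclei. The Pcdhac1 start had 3.17 ± 1.57 there.

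No peak of the window was called for mini-bulk size, and edgeR called no peak of the whole table. DESeq2 called 3 peaks of the whole table between the sizes in lung. An interaction of tissue with size passed at 0 of 29 peaks by edgeR (0% of all tested peaks), with 3 under an unadjusted p of 0.05 (4.15% of all) and 0 called by DESeq2. Between 200 and 50 nuclei, 0 were called in lung (0% of all; 4 unadjusted, 8.20% of all; DESeq2 0, with 11 given no adjusted p), 0 in brain (0% of all; 0 unadjusted, 1.14% of all; DESeq2 0) and 0 over both tissues (0% of all; 1 unadjusted, 3.67% of all; DESeq2 0). The number of nuclei and the way of capture changed together and cannot be told apart.

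Protocadherins outside the clusters gave a comparison with the same family. They are single genes without shared constant exons, and of 12 such genes 6 had peaks, 11 in all. Brain was higher at 6 of the 11 (5.76% of all tested peaks), on Pcdh1, Pcdh8, Pcdh9 (2 peaks), Pcdh10 and Pcdh17, and lung at 0. The median log2 fold was 1.78, against 0.07 over all tested peaks. The default filter of edgeR kept 9 of the 11. It called 4 in brain and 0 in lung (828 and 1205 of all 34136 peaks it kept). Without lung 200-nuclei replicate 1, brain 50-nuclei replicate 2 or brain 200-nuclei replicate 1, or with the replicate block, the count was 3. Over all tested peaks, those higher in brain fell from 2158 to 1435, 951, 877 and 970 in these fits. Scaled by library totals with mitochondrial reads, 0 of the 11 were higher in brain and 5 in lung (252 and 30079 of all 37466 tested peaks). Pcdh7, Pcdh11x, Pcdh12, Pcdh15, Pcdh18 and Pcdh20 had no peak, and the single peak of Pcdh19, outside the naming rule, was not called (log2 fold 1.78 ± 0.67, SE; edgeR adjusted p = 0.0845).

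The lowest p of the list was at Pcdh9, an adhesion gene of neurons (chr14:93890657-93891066). It measured 0, 38.2 and 0 RPM in lung at 50 nuclei, 7.20, 1.46 and 4.88 RPM in lung at 200 nuclei, 109.5 and 140.9 RPM in brain at 50 nuclei, and 165.5 and 107.4 RPM in brain at 200 nuclei. The tissues were far apart, and the log2 fold was 4.26 ± 0.53 (SE; edgeR adjusted p = 1.45e-06), and 7.32 without lung 50-nuclei replicate 2. Pcdh10 (chr3:45378201-45378453), a relative with known roles in axon growth, measured 7.11, 0 and 0 RPM and 13.3, 2.93 and 4.23 RPM in lung at 50 and 200 nuclei, and 62.9 and 87.7 RPM and 82.7 and 94.5 RPM in brain. Again no library of one tissue entered the range of the other, and the log2 fold was 4.13 ± 0.58 (SE; edgeR adjusted p = 8.68e-06), and 6.45 without lung 50-nuclei replicate 1. The second Pcdh9 peak had a log2 fold of 4.07 ± 1.11 (SE; adjusted p = 0.0142), and 6.04 without lung 50-nuclei replicate 1. Its call was lost without lung 200-nuclei replicate 1 (0.0553) or 3 (0.0599), brain 50-nuclei replicate 2 (0.124) or brain 200-nuclei replicate 1 (0.0705), and with the replicate block (0.120).

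The strongest non-clustered peaks covered annotated promoters, whose sequence shows what the brain-accessible stretch is made of. The RefSeq promoters of Pcdh9 (chr14:93890630-93890929, minus strand) and Pcdh10 (chr3:45378148-45378447, plus strand) on GRCm38.p6, the assembly of mm10, are given with the bases inside the peak in capitals, 273 and 247 of 300 bases.
Pcdh9: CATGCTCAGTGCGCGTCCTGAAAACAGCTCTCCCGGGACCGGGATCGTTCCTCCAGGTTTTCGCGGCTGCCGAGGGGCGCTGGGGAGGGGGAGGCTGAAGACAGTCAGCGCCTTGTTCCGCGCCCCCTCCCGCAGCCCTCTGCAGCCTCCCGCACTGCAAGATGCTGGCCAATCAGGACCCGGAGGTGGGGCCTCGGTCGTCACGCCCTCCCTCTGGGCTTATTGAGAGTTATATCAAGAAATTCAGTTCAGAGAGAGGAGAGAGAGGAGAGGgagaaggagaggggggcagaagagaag
Pcdh10: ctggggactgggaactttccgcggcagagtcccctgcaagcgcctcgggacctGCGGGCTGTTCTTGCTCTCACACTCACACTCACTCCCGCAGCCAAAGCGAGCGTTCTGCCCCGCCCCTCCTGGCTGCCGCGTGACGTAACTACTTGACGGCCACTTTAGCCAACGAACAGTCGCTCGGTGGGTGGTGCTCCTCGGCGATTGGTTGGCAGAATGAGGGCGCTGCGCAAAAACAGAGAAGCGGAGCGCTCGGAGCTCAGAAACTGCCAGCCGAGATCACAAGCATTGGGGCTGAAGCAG
Both are richer in G and C than most promoters, with 62.7% and 62.3% against a median of 52.7% over 32851 promoters of the same length. They hold 18 and 24 CpG dinucleotides against a median of 7. If the peaks' start coordinates count from 0, the stretch in capitals shifts by 1 base at its low end. Sequences of the clustered genes' own promoters are not used here.

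**Figure D5:**
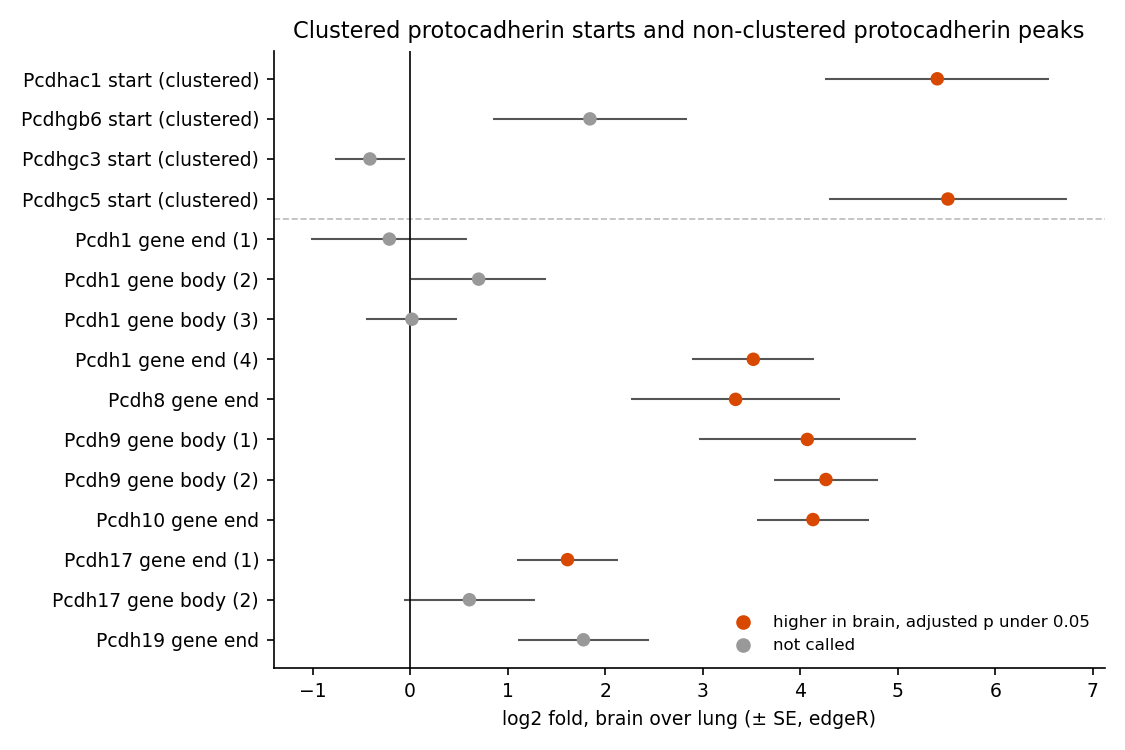
Log2 fold, brain over lung, with its SE from edgeR for the 4 clustered protocadherin start peaks (above the dashed line) and the 11 peaks of non-clustered protocadherin genes; orange marks an adjusted p under 0.05 with brain higher, and grey peaks that were not called. Called and uncalled peaks occur on both sides of the line, and the Pcdhac1 and Pcdhgc5 starts have the largest folds and the widest SEs.

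Pcdh1, which lies just beyond the window (chr18:38212744-38212934), had a log2 fold of 3.52 ± 0.62 at the peak near one gene end (SE; adjusted p = 0.000222; 5.24 without lung 50-nuclei replicate 1) and of −0.21, 0.70 and 0.02 at its other 3 peaks.

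Genes for proteins that organise the clusters in the nucleus were examined as a list. Of 15 such genes, among them Ctcf, the cohesin subunits Rad21, Smc1a and Smc3 and the cohesin loader Nipbl, 14 had peaks and 41 peaks were tested. A single one was higher in brain (5.76% of all tested peaks) and 0 in lung (4.39% of all), and the list's median log2 fold was 0.37. Without lung 50-nuclei replicate 1, 7 were higher in brain and 2 in lung, with a median of 0.66. That fit called 5240 of all 37456 tested peaks higher in brain and 1783 in lung, and their median was 0.42. Scaled by library totals with mitochondrial reads, 0 were higher in brain and 31 in lung (252 and 30079 of all 37466 tested peaks). The default filter of edgeR kept 39 of the 41. It called 0 in brain and 0 in lung (828 and 1205 of all 34136 peaks it kept). With all libraries, the list's call passed the filter on summed reads through brain alone. The called peak lay inside Nipbl (chr15:8303087-8303190, log2 fold 5.81 ± 1.39, SE; edgeR adjusted p = 0.00525) on 26 brain reads and 3 lung reads, and the call was lost without brain 50-nuclei replicate 2 (0.187) or brain 200-nuclei replicate 1 (0.170).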

How the data were processed

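The authors deposited whole-number read counts per peak, not normalized, with 1 column a library. Per the submitters' processing notes reads were placed on mm10, and the programs listed, without their roles, are bcl2fastq 2.20, Bowtie2 2.4.5, deepTools 3.1.3, MACS2 2.2.7.1, Picard, R 4.1.0, SAMtools 1.14 and Trimmomatic 0.36. How peaks were merged and counted, and how duplicates, read shifting and reads matching several places were treated, were not given in the sources used here. Repeated reads of a fragment, if kept, widen the spread at peaks with few reads.

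Counts were divided by reads in nuclear peaks. Peaks reaching 10 reads in total (37466 of them) were fitted with edgeR 4.0.16 in R 4.3.3 (quasi-likelihood, TMM), with a mean for every combination of tissue and size (4 groups), and calls used Benjamini-Hochberg adjusted p under 0.05 over all tested peaks. SE is the size of the log2 fold divided by the root of F. Alternatives were other scalings, DESeq2 1.42.0, other filters, a replicate block, thinning to 319307 nuclear reads and leaving libraries out. The model was tested on simulated counts, where only peaks with at least 100 reads were changed. It recovered 88% of changes of log2 fold 3 and 48% of −3, and 100% of 5 and 82% of −5. Changes with lung higher were thus found less often than those with brain higher. Among unchanged peaks 9 were called. Changes at sparser peaks were not simulated.

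Genes were placed from RefSeq (GRCm38.p6), whose table here lists starts and ends without strand or exons, so the start of a protocadherin is its lower coordinate. Exons, introns and UTRs were not used. Peak coordinates are printed as deposited, and whether they count from 0 or 1 is not stated.

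Members and gene lists were chosen with earlier results of these data known. Named were called peaks, C-type start peaks, and in each position class the peak with the lowest p and the highest level; in comparison lists, called peaks, at most the 4 with the lowest p. A called peak of one comparison list is not reported here.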

Additional observations from a re-analysis of the deposited data

Results flagged for a closer look

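In groups of 4 to 10 libraries, here the 6 lung or 4 brain libraries, 12 of 74 values had a single library set apart from the others by Dixon's criterion at the 95% level, where chance gives about 1 in 20 groups. At sparse peaks a single library with reads among libraries at 0 is enough. Lung 50-nuclei replicate 1 had 4.27 RPM at the Pcdhac1 start, with the other lung libraries at 0, and lung 200-nuclei replicate 3 had 0.325 RPM at the narrower alpha-beta peak, again with the others at 0. Brain 200-nuclei replicate 2 had 38.7 RPM at the Pcdhac1 start, above 15.04 to 16.4 RPM in the other brain libraries. Lung 200-nuclei replicate 1 had 4.43 RPM at the Pcdhgc5 start (others 0 to 1.46 RPM) and 16.1 RPM at the Hdac3 end (others 0 to 3.25 RPM).

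Lung 50-nuclei replicate 2 stood high at 3 peaks inside Diaph1, with 47.0 RPM at the third (others 0 to 13.9 RPM), 102.7 RPM at the fourth (others 39.3 to 62.1 RPM) and 47.0 RPM at the seventh (others 0 to 9.97 RPM). Lung 50-nuclei replicate 3 had 12.8 RPM at the wider alpha-beta peak (others 0 to 4.23 RPM), the same 12.8 RPM when both alpha-beta peaks were summed (others 0 to 4.55 RPM), and 74.8 RPM at the second peak inside Arap3 (others 7.76 to 24.2 RPM). Summed over the 4 protocadherin start peaks, brain 50-nuclei replicate 2 had 172.2 RPM and the other brain libraries 98.5 to 103.1 RPM. Of the 12 values, 6 came from lung 50-nuclei replicates 2 and 3, which also had reads at the fewest peaks of the window.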

How the results depend on the processing

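Of 575 recomputed log2 folds of the 29 peaks over 20 settings, 494 kept their direction and side of the threshold, 25 lost a call, 25 gained one and 31 changed sign. Peaks higher in brain, 5 with all libraries, ranged from 3 to 6 on leaving out a library, and peaks higher in lung, 2, from 1 to 4. Over all tested peaks these ranges were 877 to 5240 in brain and 665 to 3240 in lung. At 50 nuclei calls in the window ranged from 0 to 4 and at 200 nuclei from 0 to 8. Scaling by library totals with mitochondrial reads brought the median over all tested peaks to a log2 fold of −3.34. It left 1 peak higher in brain and 21 in lung, against 252 and 30079 of all 37466 tested peaks (14 of the window called at 50 nuclei, 20 at 200). It reversed 12 folds: wider alpha-beta peak −0.32, first peak before gamma −2.25, Pcdhgb6 −1.45, other gamma peaks 1 and 5 −3.20 and −3.24, Diaph1 peaks 1, 2, 3 and 5 −3.24, −0.16, −2.76 and −2.59, Rell2 −2.92, Fchsd1 −3.00 and the first Arap3 peak −1.93; outside the window Wasf1 went to −1.83. Relative to the median of −3.34, all 12 of these folds stayed above it. The default filter of edgeR kept 24 of the 29 peaks and called 1 in brain, 1 in lung and 0 at 200 nuclei. Over all 34136 peaks it kept, 828 were higher in brain and 1205 in lung. It removed 4 of the 7 called peaks, all of them higher in brain. DESeq2's Wald test called 4 in lung and 3 at 50 nuclei. DESeq2 size factors and nuclear scaling each gave 1 call at 50 and 1 at 200 nuclei, no filter gave 1 at 200, thinning gave 1 in lung, 2 at 50 and 0 at 200, and leaving out lung 50-nuclei replicates 2 and 3 together gave 2 at 50 and 9 at 200; the cause was not tested.

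With the replicate block the peaks higher in lung fell to 1 and the calls at 200 nuclei to 0, the calls at the second Diaph1 and second Arap3 peaks and no other of the 7 were lost, and 3 uncalled folds changed sign (second peak before gamma 0.037, other gamma peaks 1 and 5 −0.022 and −0.30). Whether equal numbers pair the libraries could not be decided. Same-numbered libraries correlated at −0.029 to 0.019 in their deviations from group means (13 pairs), and the 24 other pairs at −0.025 to 0.029. With 2 or 3 libraries a group the deviations depend on each other, so these values cannot exclude a pairing. Thinning turned the second peak before gamma to 1.34 and the Diaph1 end to 0.026, TMMwsp turned other gamma peak 5 to −0.013, and leaving out both lung libraries turned it to −0.70. Leaving out single libraries gave −3.46 to 1.73 at the second peak before gamma, −0.95 to 0.71 and −0.28 to 2.79 at other gamma peaks 1 and 5, −0.10 to 0.48 at the first Diaph1 peak, −0.28 to 0.020 at the Diaph1 end and −1.69 to 3.79 at the first Arap3 peak. The ratio for the alpha cluster has no value without lung 50-nuclei replicate 1, since lung is then at 0. In depth, 3 reads are 6.44 to 9.40 RPM in brain and 8.81 RPM in lung 50-nuclei replicate 2. Leaving libraries out of the folds against 3 reads was chosen after seeing the data.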

Other observations

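Genes whose products work with clustered protocadherins inside the cell had 29 tested peaks on all 12 genes of the list, of which 4 were higher in brain (5.76% of all tested peaks) and 0 in lung, with a median log2 fold of 0.45. The clearest was at the end of Wasf1 (chr10:40883270-40883772), which encodes a subunit of the WAVE complex that drives actin branching: 103.1 ± 11.1 RPM in brain (SD, n = 4) and 33.6 ± 12.1 RPM in lung (SD, n = 6), log2 fold 1.67 ± 0.34 (SE; edgeR adjusted p = 0.000886). Among the others were a peak inside Wasf1 (adjusted p = 0.0152), on 22 brain reads and 5 lung reads, and a peak inside the focal adhesion kinase gene Ptk2 (adjusted p = 0.0182), on 21 brain reads and 10 lung reads. The peak inside Wasf1 passed the filter of 10 summed reads through brain alone. The default filter of edgeR kept 26 of the 29, with a median of 0.17. It called 1 in brain and 0 in lung (828 and 1205 of all 34136 peaks it kept). The count of 4 fell to 1 without lung 200-nuclei replicate 3, brain 50-nuclei replicate 1 or brain 200-nuclei replicate 1. It fell to 2 without lung 200-nuclei replicate 2, and to 1 with the replicate block. Over all tested peaks, those higher in brain fell from 2158 to 1154, 981, 877, 1296 and 970 in these fits. Scaled by library totals with mitochondrial reads, the Wasf1 end turned to a log2 fold of −1.83. On that scale 0 of the 29 were higher in brain and 24 in lung (252 and 30079 of all 37466 tested peaks).

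Other cadherins of brain or lung differed in both directions. Of 28 tested peaks on 15 of 19 genes, 6 were higher in brain (Cdh11, Celsr3, Fat3 and Clstn3) and 2 in lung (5.76% and 4.39% of all tested peaks). The median log2 fold was 0.86. The default filter of edgeR kept 16 of the 28, and the median turned to −0.58. It called 1 in brain and 2 in lung (828 and 1205 of all 34136 peaks it kept). Scaled by library totals, 3 were higher in brain and 15 in lung (252 and 30079 of all 37466 tested peaks). Clstn3, a synaptic calsyntenin, had a brain level of 97.2 ± 26.6 RPM against 2.32 ± 3.53 RPM for lung at its gene end (chr6:124464666-124464981; log2 fold 6.90 ± 0.74, SE; edgeR adjusted p = 1.54e-07). Both peaks higher in lung lay in Cdh5, the cadherin of endothelial junctions, where lung gave 84.8 ± 32.3 RPM against 14.5 ± 10.2 RPM for brain at the stronger call (chr8:104121776-104122454; log2 fold −2.80 ± 0.44, SE; adjusted p = 4.1e-05). Celsr3, a cadherin of axon tracts, had 44 brain reads and 1 lung read at its gene end. That peak passed the filter of 10 summed reads through brain alone.

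The remaining marker lists gave these counts of tested peaks higher in brain and in lung: oligodendrocytes 4 and 0 of 11, astrocytes 1 and 0 of 4, alveolar type 1 cells 0 and 6 of 25, alveolar type 2 cells 2 and 0 of 11, lung mesenchyme 1 and 3 of 10, and immune cells 0 and 0 of 7 (5.76% and 4.39% of all tested peaks). The 2 alveolar type 2 peaks higher in brain lay on Etv5 and Sftpc, the other 9 were not called, and the list's median log2 fold was −0.18. Scaled by library totals with mitochondrial reads, the counts in brain and lung were 2 and 6 for oligodendrocytes, 0 and 2 for astrocytes and 0 and 25 for alveolar type 1. They were 0 and 10 for alveolar type 2, 0 and 9 for mesenchyme and 0 and 6 for immune cells, against 252 and 30079 of all 37466 tested peaks. The oligodendrocyte count of 4 fell to 2 without brain 50-nuclei replicate 2 or brain 200-nuclei replicate 2 and with the replicate block. The astrocyte count rose to 2 without lung 50-nuclei replicate 1, fell to 0 with the replicate block and with the default filter of edgeR, and 1 peak was higher in lung without lung 50-nuclei replicate 2. The alveolar type 1 count of 6 ranged from 3, without lung 200-nuclei replicate 2 or brain 50-nuclei replicate 1, to 9, without lung 50-nuclei replicate 2 or 3, and was 4 with the replicate block. Alveolar type 2 peaks higher in lung numbered 1 without lung 50-nuclei replicate 2. In mesenchyme the peaks higher in lung fell to 1 without brain 200-nuclei replicate 1. The mesenchyme peak higher in brain was lost without any one lung library of 200 nuclei or any one brain library. It was also lost with the replicate block and with the default filter of edgeR. On leaving out single libraries, calls over all tested peaks ranged from 877 to 5240 in brain and from 665 to 3240 in lung.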
